A study of Mus musculus with 6 samples.

Results

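The genes described here are 10 that serve the fusion of osteoclasts and the resorption of bone: Atp6v0d2, Dcstamp, Ocstamp, Acp5, Ctsk, Calcr, Nfatc1, Oscar, Itgb3 and Mmp9. They were taken by symbol from a deposited table of 55291 genes, in which all 10 are present, and 7 of them passed the filter on low counts. RNA was sequenced from femoral marrow of 3 mice lacking P2rx7 (knockouts, lettered A, B and C) and 3 wild-type mice (WT 1, 2 and 3), all 6 to 8 weeks old, each with its own library. P2rx7 encodes a cation channel opened by extracellular ATP, and the study asked how its loss affects bone. The sources used here give neither the allele nor the exons removed, the strain or the sex, and name no treatment for either genotype.

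Osteoclasts are the cells that dissolve bone. They form when precursors of the monocyte and macrophage line, kept alive by M-CSF and driven by RANKL, switch on the transcription factor NFATc1 and fuse into large cells with many nuclei. A mature osteoclast seals itself to bone through an integrin, pumps acid into the sealed space with a vacuolar proton pump, and digests the exposed collagen with cathepsin K and other enzymes. Many genes of this programme are not exclusive to osteoclasts: macrophages, megakaryocytes, neutrophils and stromal cells each express some of them.

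Acp5, Ctsk and Oscar have been described as targets of NFATc1, and 4 of the 10 genes (these and Calcr) have an entry in the RefSeq promoter table (GRCm38.p6). The windows of these 3 genes are shown because their own differences between genotypes, described below, ran from lower to higher while the ranges of Nfatc1 overlapped. Each runs over the 250 bases before a transcription start, 5′ to 3′ on the gene's strand. For Acp5 it is the most downstream of 3 starts listed and the one with the most matches: the other windows held 1 NFAT core each and no E-box. Capitals mark any match, on either strand, to the NFAT core GGAAA, the PU.1 core GAGGAA or the MITF E-box CATGTG.
Acp5, chr9:22130599-22130848, minus strand: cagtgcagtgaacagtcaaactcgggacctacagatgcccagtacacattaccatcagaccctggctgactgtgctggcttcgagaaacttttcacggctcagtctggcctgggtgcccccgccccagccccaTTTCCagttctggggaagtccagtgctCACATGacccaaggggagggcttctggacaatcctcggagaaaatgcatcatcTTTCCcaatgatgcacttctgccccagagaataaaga
Ctsk, chr3:95498960-95499209, plus strand: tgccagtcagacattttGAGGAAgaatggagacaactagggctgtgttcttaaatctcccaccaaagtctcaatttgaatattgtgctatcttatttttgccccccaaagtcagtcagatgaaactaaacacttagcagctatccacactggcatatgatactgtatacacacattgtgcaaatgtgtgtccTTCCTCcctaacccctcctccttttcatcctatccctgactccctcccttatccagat
Oscar, chr7:3616158-3616407, minus strand: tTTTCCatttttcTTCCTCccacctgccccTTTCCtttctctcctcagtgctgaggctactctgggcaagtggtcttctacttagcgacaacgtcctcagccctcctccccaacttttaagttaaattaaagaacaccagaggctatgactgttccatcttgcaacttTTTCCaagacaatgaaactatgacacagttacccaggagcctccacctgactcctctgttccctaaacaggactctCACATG
The Acp5 window held 2 NFAT cores and 1 MITF E-box, the Ctsk window held 2 PU.1 cores, and the Oscar window held 3 NFAT cores, 1 PU.1 core and 1 MITF E-box. Of 32841 windows of the same length in the table, 55.6% held an NFAT core, 23.3% a PU.1 core and 12.3% a MITF E-box. The AP-1 motif TGANTCA, found in 6.75% of all windows, was in none of these 3. The PU.1 and NFAT letters can overlap each other. A match describes letters only and shows no binding.

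The libraries held 18716704 to 22382281 counts in knockouts and 20037343 to 23575652 in wild types. P2rx7, the targeted gene, fell in knockouts without being absent, at 876, 722 and 748 counts in knockout A, B and C against 1207, 1410 and 1453 in WT 1, 2 and 3 (log2 fold change -0.67 ± 0.05 SE, adjusted p = 0.0109, edgeR's quasi-likelihood test; exact permutation p = 0.1, the smallest that 3 against 3 allows). The call was lost without knockout B or C (adjusted p = 0.0763 and 0.0973, edgeR), and on the libraries with Gh alone or with the 2 sets of libraries described below fitted (0.516 and 0.112), with the log2 fold change between -0.67 and -0.64. In bulk RNA, fewer cells of a type and less RNA per cell cannot be told apart. Red cell and B cell transcripts, which are plentiful in fresh marrow, were nearly missing from the libraries labelled bone marrow, while neutrophil and megakaryocyte genes were present at levels given below. The summed level of 7 erythroid genes, haemoglobins included, was 0.150 to 0.871 FPKM in knockouts and 0.159 to 0.324 FPKM in wild types, and that of 6 B cell genes was 0.744 to 1.22 and 0.652 to 0.751 FPKM. Macrophage and collagen transcripts stood high, with C1qb, a chain of the complement component C1q, at 1926 ± 128 FPKM in knockouts against 1772 ± 48.8 FPKM in wild types, and the type I collagen chain Col1a1 at 1236 ± 61.4 and 1489 ± 176 FPKM (SD, n = 3). The labels name no culture or removal of cells between flushing and RNA extraction. Whether such a step took place was not tested, so the levels below describe these libraries and may not stand for whole marrow. Gh, the growth hormone gene, had 23 counts in knockout A, none in knockout B or C, and 54 to 82 in wild types, while Alb, the serum albumin gene, had 46 counts in knockout B, 36 in knockout C and none elsewhere. These traces divide the libraries into a Gh set and an Alb set, and the Alb set holds knockouts alone.

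Across the 10 genes, the levels per length (FPKM, counts scaled by exon length and library size) ranged widely, and the fusion proteins DC-STAMP and OC-STAMP were encoded by some of the lowest. In knockouts the order by mean FPKM was Ctsk, Atp6v0d2, Nfatc1, Itgb3, Acp5, Mmp9, Oscar, Ocstamp, Dcstamp and Calcr. In wild types Nfatc1 stood above Atp6v0d2 and Calcr above Dcstamp. Neighbours whose ranges overlapped were Atp6v0d2 with Nfatc1 and the last 3 genes in knockouts, and in wild types Atp6v0d2 with Itgb3, Acp5 with Mmp9, and Calcr with Dcstamp. The plot of FPKM by gene and library shows this spread.

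**Figure D1:**
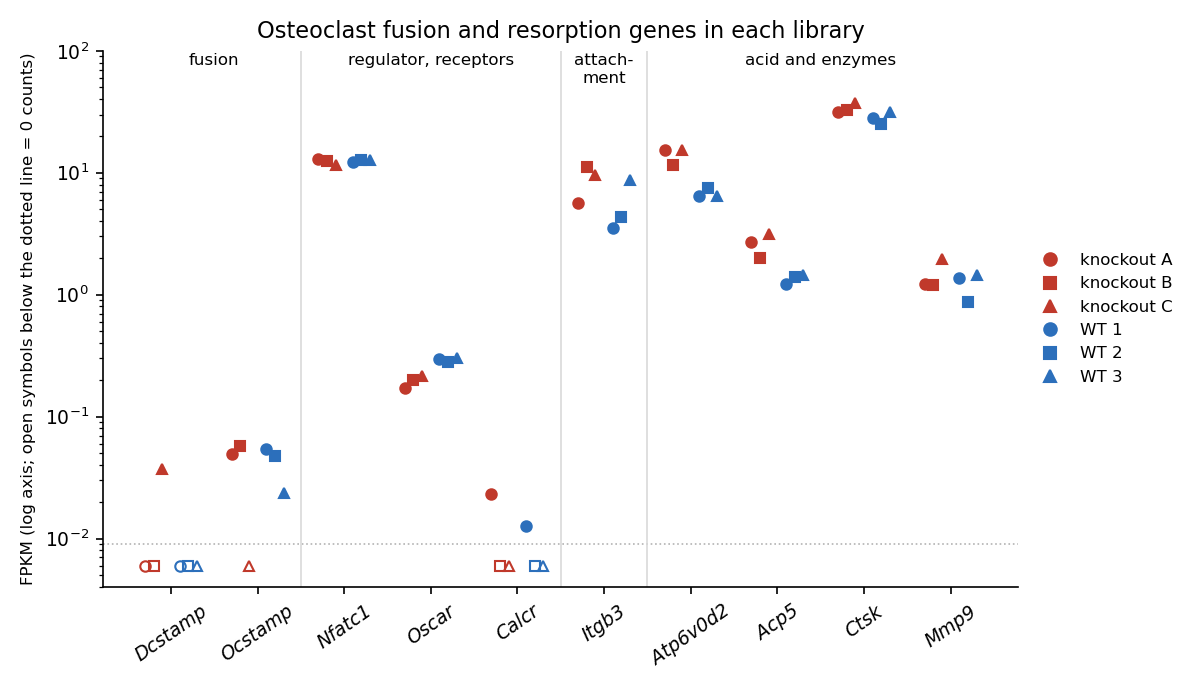
FPKM of the 10 genes on a log axis, 1 symbol per library, knockouts in red left of wild types in blue, with open symbols for libraries with 0 counts. Ctsk lies between 25.1 and 37.1 FPKM in all libraries, while the highest library of Dcstamp, Ocstamp or Calcr is at 0.0576 FPKM.

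Dcstamp and Ocstamp, which encode the fusion proteins most closely tied to osteoclasts, were barely detected in either genotype. The first encodes DC-STAMP, a multi-pass membrane protein without which osteoclasts of mice stay mononuclear. It had 0, 0 and 2 counts in knockout A, B and C and 0 in each of WT 1, 2 and 3. A count of 0 allows up to 3 counts in a library, which for this gene is 0.0478 to 0.0602 FPKM. Ocstamp encodes the related OC-STAMP, also needed for fusion in mice. It had 4, 4 and 0 counts in knockout A, B and C, against 4, 4 and 2 counts in WT 1, 2 and 3. The summed counts were 8 in knockouts and 10 in wild types, a ratio of 0.881 per total count with an exact 95% binomial interval of 0.302 to 2.48. A difference within that interval was not detectable at this depth, and neither gene entered the test.

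Calcr encodes the calcitonin receptor, through which calcitonin halts resorption, and is a marker of mature osteoclasts. It had 2, 0 and 0 counts in knockout A, B and C and 1, 0 and 0 in WT 1, 2 and 3. Of 52 other pathway genes in the lists used here 50 passed the filter on low counts, and Siglec15 and Slc9b2 did not. Siglec15, a surface lectin needed for multinucleation, had 1 count in all 6 libraries together, in knockout A. Slc9b2, a sodium-proton exchanger induced in osteoclasts, had 5, 3 and 4 counts in knockout A, B and C and 5, 6 and 0 in WT 1, 2 and 3. Dcstamp, Ocstamp, Calcr and Siglec15 were thus at or near 0 in the same libraries in which the resorption genes below were measured.

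Nfatc1, the transcription factor that commands osteoclast differentiation, did not pass the test and varied least of the 7 tested genes. Its level was 13.01, 12.4 and 11.7 FPKM in knockouts A, B and C and 12.3, 12.6 and 12.8 FPKM in WT 1, 2 and 3. The ranges overlap. The log2 fold change was -0.02 ± 0.05 (SE, adjusted p = 0.893, edgeR), and the sign changed without knockout C, to 0.02.

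Oscar encodes a collagen receptor that gives osteoclast precursors a co-stimulating signal through the Fc receptor gamma chain. It had 7, 7 and 8 counts in knockout A, B and C and 11, 12 and 13 counts in WT 1, 2 and 3, or 0.171, 0.200 and 0.216 FPKM against 0.297, 0.281 and 0.304 FPKM. All knockouts lay below all wild types, as did 10.7% of all tested genes. Oscar passed the filter on low counts through the wild types alone, where it was higher. Its place below them is therefore partly set by the filter and is no support for a difference. At so few counts the log2 fold change of -0.58 ± 0.28 (SE) did not pass (adjusted p = 0.434, edgeR). DESeq2 gave -0.59 with a larger SE of 0.64, so the edgeR SE may understate the error of this gene.

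Atp6v0d2 was the 1 gene of the 10 that edgeR called, and it was higher in knockouts. Of all tested genes 0.0581% were called higher and 0.0452% lower. Atp6v0d2 encodes subunit d2 of the vacuolar proton pump, and mice without it have osteoclasts that fuse poorly. The gene lies on the minus strand of chromosome 4 at 19876841 to 19922605 (GRCm38), with 2716 bases of exons. It had 15.2, 11.6 and 15.4 FPKM in knockouts A, B and C and 6.44, 7.52 and 6.399 FPKM in WT 1, 2 and 3. The lowest knockout was 1.54 times the highest wild type. The fold change was 2.08, or 1.06 ± 0.12 on the log2 scale (SE, adjusted p = 0.0318, edgeR). The call was lost without WT 1 (adjusted p = 0.128) and without knockout A, B or C (0.0717, 0.0521 and 0.109), with the log2 fold change between 0.99 and 1.18 in these fits. When the Gh and Alb libraries were fitted as separate sets, so that the genotype rests on knockout A, the log2 fold change was 1.16 (adjusted p = 0.230). In knockouts B and C the set and the genotype cannot be told apart.

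**Figure D2:**
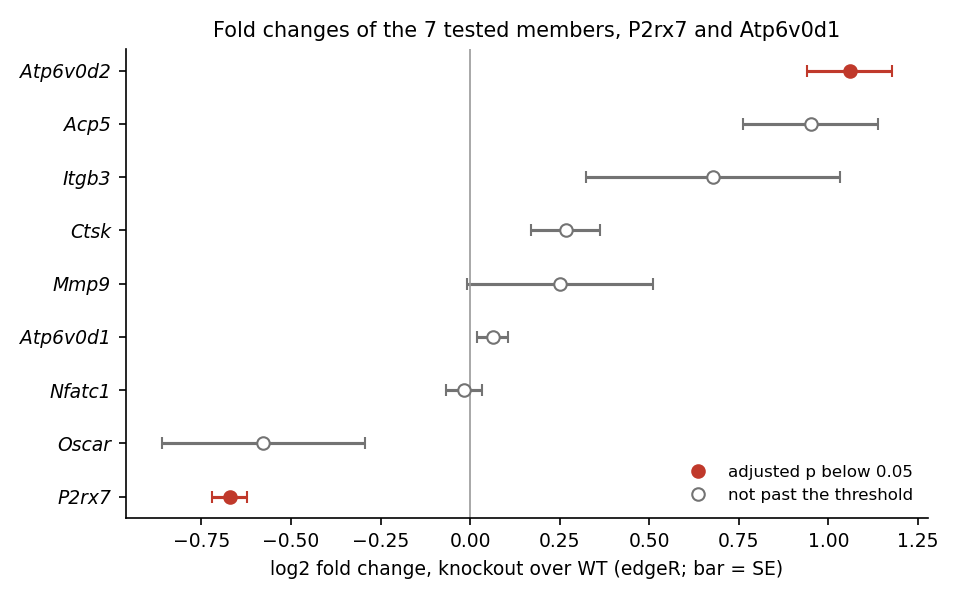
Log2 fold changes (knockout over wild type, edgeR) of the 7 tested genes, P2rx7 and Atp6v0d1, with bars of 1 SE. Atp6v0d2 at 1.06 and P2rx7 at -0.67 pass the threshold, and Nfatc1 lies at -0.02.

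Subunit d has a second form, Atp6v0d1, which most cells use in their lysosomes, and it stayed far above Atp6v0d2. Atp6v0d1 had 97.4, 100.5 and 97.0 FPKM in knockouts A, B and C and 92.5, 94.5 and 96.6 FPKM in WT 1, 2 and 3 (log2 fold change 0.06 ± 0.04 SE, adjusted p = 0.495, edgeR). These ranges do not overlap, but the lowest knockout was only 1.004 times the highest wild type. Of all tested genes 11.1% had all knockouts above all wild types. Atp6v0d2 made up 13.5%, 10.3% and 13.7% of the summed FPKM of both forms in knockouts A, B and C and 6.51%, 7.37% and 6.21% in WT 1, 2 and 3. The share was 12.5% ± 1.88 in knockouts and 6.70% ± 0.605 in wild types (SD, n = 3; exact two-sided permutation p = 0.1, the smallest that 3 against 3 allows). All knockouts lay above all wild types, which follows from the rise of Atp6v0d2 and is no separate support.

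Acp5, which encodes the tartrate-resistant acid phosphatase used to stain osteoclasts, was about as much higher as Atp6v0d2 and did not pass. It lies on the minus strand of chromosome 9 at 22126727 to 22135711. It had 122, 77 and 128 counts in knockout A, B and C and 50, 66 and 68 in WT 1, 2 and 3. Per length this was 2.71, 1.997 and 3.14 FPKM in knockouts against 1.23, 1.40 and 1.45 FPKM in wild types, and the ranges do not overlap. The log2 fold change was 0.95 ± 0.19 (SE, adjusted p = 0.1247, edgeR), and a value as high was found in 1.70% of tested genes. DESeq2, which called 2.65% of its genes against 0.103% in edgeR, called Acp5 (adjusted p = 0.0132), as did edgeR on all genes with a count (adjusted p = 0.00336), where 3.2% of genes were called. An antisense gene, 6530413G14Rik, shares 137 exon bases with Acp5 and had at most 1 count in a library.

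**Figure D3:**
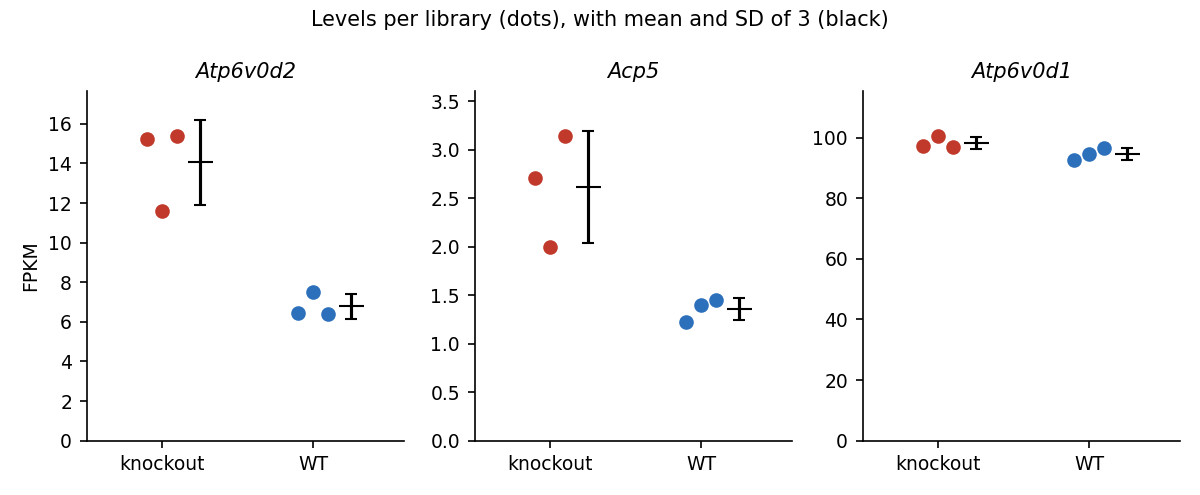
FPKM of Atp6v0d2, Acp5 and Atp6v0d1 in each library, knockouts left of wild types, with the mean and SD of 3 beside the points. Atp6v0d2 and Acp5 do not overlap between genotypes, with the lowest of the knockouts in knockout B. Atp6v0d1 averages 98.3 and 94.5 FPKM and does not overlap either, with the lowest knockout at 1.004 times the highest wild type.

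Among 15477 other tested genes, Acp5 had the pattern most like that of Atp6v0d2, and Atp6v0d2 the pattern most like that of Acp5. Likeness was measured as the root mean square difference of log2 CPM over the 6 libraries after each gene's mean was removed, and it includes the genotype difference. It was 0.133 between these genes. With predicted genes, unnamed clones, pseudogenes and antigen receptor segments left out, the genes next nearest to Atp6v0d2 were Shd, Cerkl, Serpinb1c and Lrrc46, at 0.193 to 0.223. The next gene of the 10 was Ctsk at 0.442, in rank 819 with none left out. Both Atp6v0d2 and Acp5 were highest in knockout C and, among knockouts, lowest in knockout B. The 2 genes lie on different chromosomes.

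Macrophages can express Acp5, Ctsk and Atp6v0d2 without being osteoclasts. The summed level of 8 macrophage genes was 5469 to 6082 FPKM in knockouts and 5395 to 5494 FPKM in wild types. Of the 8, 0 passed in edgeR or DESeq2, beside 0.103% and 2.65% of all genes tested in each. At an unadjusted edgeR p below 0.05, 2 were higher, beside 8.35% of all tested genes. The median log2 fold change of the 8 was 0.12, with 7 values positive, up to 0.17, and Marco negative at -0.25. Atp6v0d2 stood at 1.06 and Acp5 at 0.95. Knockouts lay above wild types without overlap in 2 of the 8 and below in 0, beside 11.1% and 10.7% of all tested genes. The part of macrophages in the results for Atp6v0d2 and Acp5 was not tested.

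Ctsk encodes cathepsin K, the protease that cuts type I collagen in the resorption pit, and was the most abundant of the 10 genes. Its position is chromosome 3, 95499256 to 95509362, plus strand. It had 31.5, 32.7 and 37.1 FPKM in knockouts A, B and C and 28.3, 25.1 and 31.2 FPKM in WT 1, 2 and 3. The lowest knockout and the highest wild type were nearly level, at a ratio of 1.01. The log2 fold change of 0.27 ± 0.10 (SE) did not pass (adjusted p = 0.239, edgeR). Stromal cells can also express this gene. Their list of 10 summed to 2445 to 2568 FPKM in knockouts and 2214 to 2717 FPKM in wild types. Of 9 tested genes 0 passed in edgeR and 1 (Sp7) in DESeq2, beside 0.103% and 2.65% of all genes tested in each. At an unadjusted edgeR p below 0.05, 4 were higher and 1 lower, beside 8.35% and 8.22% of all tested genes. The median log2 fold change of the list was 0.55. Cxcl12, the stromal chemokine that holds blood stem cells in marrow, had 494, 594 and 571 FPKM in knockouts A, B and C, against 328, 164 and 388 FPKM in WT 1, 2 and 3. The list did not move as 1 group: 6 of the 9 log2 fold changes were positive, up to 1.49 for the leptin receptor gene Lepr. The other 3 were negative, at -0.26 for Col1a1, -0.12 for Runx2 and -0.09 for Col1a2. Knockouts lay above wild types without overlap in 4 genes (Cxcl12, Lepr, Sp7 and Alpl) and below in 1 (Col1a1). Of all tested genes 11.1% lay above and 10.7% below. The part of stromal cells in the value of Ctsk was not tested.

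Itgb3 encodes integrin beta 3, which pairs with alpha v in the osteoclast's sealing zone and with alpha IIb on platelets. Its position is chromosome 11, 104608000 to 104670476, plus strand. It had 5.62, 11.1 and 9.64 FPKM in knockouts A, B and C and 3.53, 4.33 and 8.70 FPKM in WT 1, 2 and 3. WT 3 lay above knockout A, so the genotypes overlap, and the log2 fold change of 0.68 ± 0.35 (SE) did not pass (adjusted p = 0.380, edgeR). Leaving out a library moved this value more than that of the other 6 tested genes: it was 1.17 without WT 3 (adjusted p = 0.0767), 0.44 without WT 1 and 0.02 with the Gh and Alb sets fitted.

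Megakaryocyte genes were high and low in the same libraries as Itgb3. Itga2b, the alpha IIb partner, had 1.68, 5.31 and 4.15 FPKM in knockouts A, B and C and 0.822, 1.20 and 3.38 FPKM in WT 1, 2 and 3. Ppbp, the gene of platelet basic protein, had 19.8, 62.3 and 52.9 FPKM in knockouts against 9.01, 10.9 and 38.8 FPKM in wild types. Both were lowest in WT 1 and highest in knockout B, as was Itgb3. Pf4, a platelet chemokine gene, did not follow, at 237, 266 and 247 FPKM in knockouts and 330, 283 and 228 FPKM in wild types. For the 7 tested of 8 megakaryocyte genes the median log2 fold change was 1.13, and the list summed to 261 to 345 FPKM in knockouts and 276 to 341 FPKM in wild types. Itgav, the alpha v partner on osteoclasts, had 24.1, 19.6 and 20.4 FPKM in knockouts against 24.7, 32.7 and 24.2 FPKM in wild types (log2 fold change -0.34, adjusted p = 0.237, edgeR). The part of megakaryocytes in the value of Itgb3 was not tested.

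**Figure D4:**
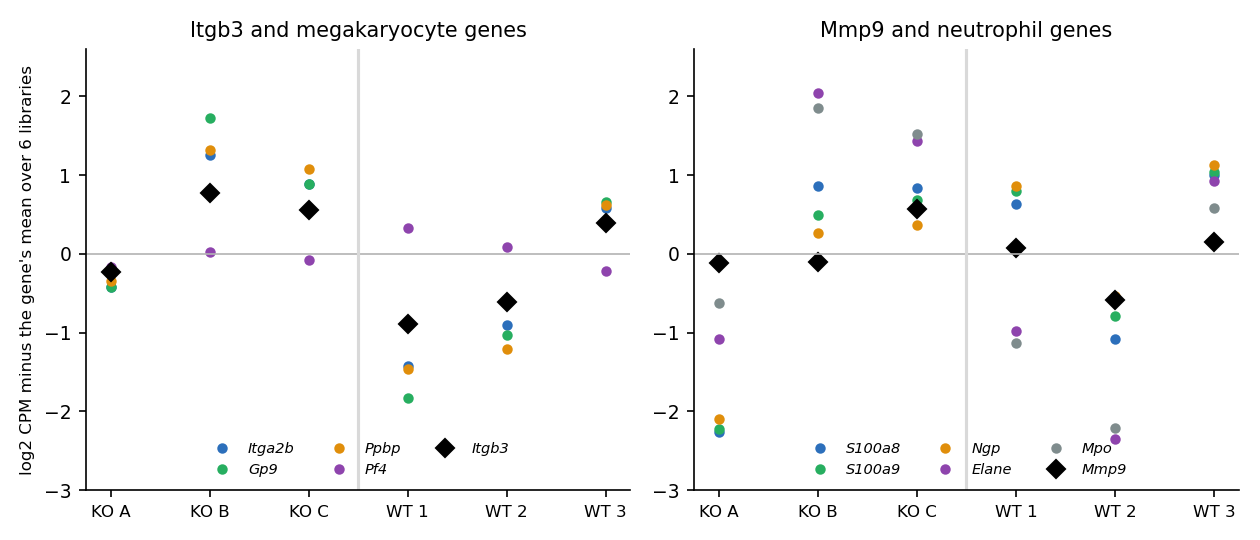
Log2 CPM of Itgb3 with megakaryocyte genes (left) and Mmp9 with neutrophil genes (right), each less the gene's mean over 6 libraries, knockouts left of wild types. Itgb3 is low in WT 1 and WT 2 and high in knockouts B and C, as are Itga2b, Gp9 and Ppbp, while the neutrophil genes spread far more than Mmp9.

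Mmp9 encodes gelatinase B, a protease of osteoclasts and of neutrophil granules that clears degraded collagen. It had 1.21, 1.21 and 1.94 FPKM in knockouts A, B and C and 1.37, 0.867 and 1.45 FPKM in WT 1, 2 and 3. The ranges overlap, and the log2 fold change of 0.25 ± 0.26 (SE) did not pass (adjusted p = 0.670, edgeR). Without knockout C the log2 fold change was -0.02. The 9 neutrophil genes summed to 64.7, 381 and 363 FPKM in knockouts and 324, 123 and 416 FPKM in wild types, with a median log2 fold change of -0.44. Of these, 0 passed in edgeR or DESeq2, beside 0.103% and 2.65% of all genes tested in each. At an unadjusted edgeR p below 0.05, 1 was lower, beside 8.22% of all tested genes. S100a9, a calcium-binding protein of neutrophils, had 15.7, 102 and 118 FPKM in knockouts and 127, 42.8 and 152 FPKM in wild types. Ngp, a granule protein gene, had 10.4, 53.5 and 57.6 FPKM in knockouts and 80.9, 31.2 and 98.3 FPKM in wild types. Elane and Mpo, genes of enzymes made by early neutrophil precursors, were the 2 of the 9 with a positive log2 fold change, at 1.47 and 1.71, and did not pass (adjusted p = 0.429 and 0.306, edgeR). Mmp9 was lowest in WT 2, as were Elane and Mpo, while S100a9 and Ngp were lowest in knockout A. The part of neutrophils in the value of Mmp9 was not tested.

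Of the 7 tested genes 1 was called higher and 0 lower, 5 had a positive log2 fold change, and the median was 0.27. Over all 15478 tested genes the median was 0.00 and 7924 values were positive. Knockouts lay above wild types without overlap in 3 of the 7 (Atp6v0d2, Acp5 and Ctsk) and below in 1 (Oscar), against 11.1% and 10.7% of all tested genes, or 21.8% in either direction. Oscar entered the test through the wild types alone, so its place is partly set by the filter. An unadjusted p below 0.05 was reached by 3 of the 7, against 16.6% of all tested genes. The 3 genes left out by the filter are Dcstamp, Ocstamp and Calcr, so these counts do not speak for all 10.

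The wider pathway was read from 52 other genes in 7 lists. Of the 50 tested, 0 passed in edgeR, beside 0.103% of all tested genes, and the median log2 fold change was 0.04. An unadjusted edgeR p below 0.05 was reached by 7 higher and 3 lower genes, beside 8.35% and 8.22% of all genes. DESeq2 called 5 of the listed genes (Ctsb, Cst3, Tnfsf11, Tnfrsf11b and Timp1), beside 2.65% of all its genes. With no filter on low counts edgeR called 6, these and Itgav, beside 3.2% of all genes. Receptors and adaptors of precursors were abundant, with log2 fold changes between -0.01 and 0.16. The adaptor Fcer1g, through which OSCAR signals, was at 798 ± 21.8 FPKM in knockouts against 797 ± 8.11 FPKM in wild types, and Tyrobp, the gene of the adaptor DAP12, was at 480 ± 17.4 FPKM in knockouts against 447 ± 11.1 FPKM in wild types. Csf1r, the M-CSF receptor, was at 237 ± 26.6 FPKM in knockouts against 239 ± 6.18 FPKM in wild types, and Tnfrsf11a, the RANKL receptor RANK, was at 11.2 ± 1.29 and 11.3 ± 0.6002 FPKM (SD, n = 3). Trem2, a lipid-sensing receptor of the same adaptor pathway, was at 69.2 ± 2.64 and 62.4 ± 3.06 FPKM (adjusted p = 0.235, edgeR).

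Of 10 transcription factors, all tested, 7 had a positive and 3 a negative log2 fold change, between -0.15 and 0.15. Spi1, the gene of PU.1, was at 89.0, 92.1 and 80.5 FPKM in knockouts A, B and C and 87.7, 82.5 and 88.6 FPKM in WT 1, 2 and 3. Fos, a part of AP-1, was at 55.3 ± 5.27 FPKM in knockouts against 57.1 ± 11.2 FPKM in wild types. The NF-kappa B subunit genes of smallest p, Nfkb1 and Nfkb2, had log2 fold changes of 0.10 and -0.09. In the fusion list, Cd47, the ligand of the macrophage receptor SIRP alpha, was at 28.2 ± 1.72 FPKM in knockouts against 24.1 ± 2.12 FPKM in wild types (log2 fold change 0.23, adjusted p = 0.221, edgeR). Sirpa itself had a log2 fold change of 0.11, the tetraspanin gene Cd81 had -0.13 and the metalloproteinase gene Adam8 had -0.05.

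Of the 12 other genes of acid secretion that were tested, 10 had a positive log2 fold change, with a median of 0.07. In edgeR and DESeq2 0 passed, beside 0.103% and 2.65% of all genes tested in each. At an unadjusted edgeR p below 0.05, 2 were higher, beside 8.35% of all tested genes. Whether the 12 genes differ from Atp6v0d2 was not tested. Apart from Car2, their log2 fold changes lay between -0.04 and 0.19. Tcirg1, the a3 subunit of the same pump, was at 54.7, 55.9 and 56.5 FPKM in knockouts A, B and C and 55.0, 52.8 and 52.4 FPKM in WT 1, 2 and 3. Atp6v1b2, a subunit of its catalytic head, was at 48.2 ± 0.729 FPKM in knockouts against 42.4 ± 2.01 FPKM in wild types (log2 fold change 0.19, adjusted p = 0.180, edgeR). Clcn7, the chloride transporter that accompanies the pump, was at 27.6 ± 0.397 and 25.6 ± 1.18 FPKM (adjusted p = 0.263). Car2, the carbonic anhydrase that supplies protons, had 24, 59 and 64 counts in knockouts and 15, 11 and 44 counts in wild types, which overlap (log2 fold change 1.22 ± 0.55 SE, adjusted p = 0.314, edgeR).

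**Figure D5:**
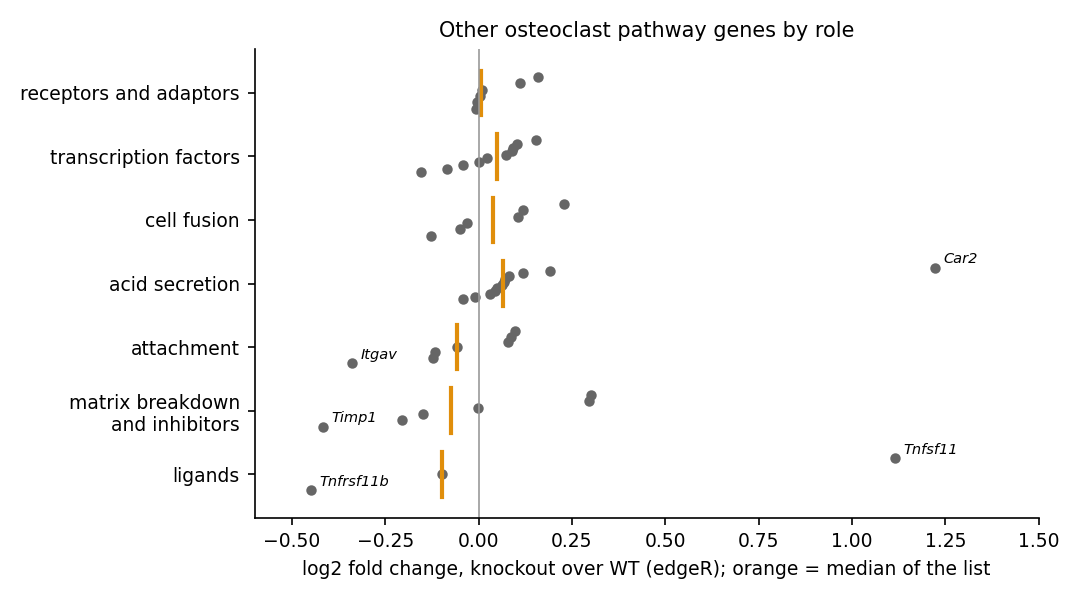
Log2 fold changes (knockout over wild type, edgeR) of the 50 tested pathway genes, 1 dot per gene by role, with the median of each list in orange. Car2 at 1.22 and Tnfsf11 at 1.11 lie farthest out, neither past the threshold, and the other values lie between -0.45 and 0.30.

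In the attachment list 3 of 7 genes had a positive log2 fold change and the median was -0.06. Tln1, the gene of talin, which ties integrins to actin, was at 115 ± 6.38 FPKM in knockout mice against 121 ± 3.79 FPKM in WT mice (SD, n = 3). Rac2, a small GTPase of blood cells, and Fermt3, the gene of the integrin activator kindlin-3, had log2 fold changes of 0.08 and 0.09. Among proteases and their inhibitors, Ctsb, a lysosomal protease of many cells, was at 1618, 1618 and 1684 FPKM in knockouts A, B and C and 1303, 1304 and 1426 FPKM in WT 1, 2 and 3, without overlap (log2 fold change 0.29, adjusted p = 0.189, edgeR). Cst3, the gene of cystatin C, which inhibits such proteases, was at 496 ± 31.4 FPKM in knockouts against 405 ± 36.7 FPKM in wild types (adjusted p = 0.180). Timp1, an inhibitor of metalloproteinases, was at 173 ± 24.8 and 232 ± 46.5 FPKM (adjusted p = 0.221).

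The ligands of the axis did not pass in the main edgeR fit. DESeq2 called Tnfsf11 and Tnfrsf11b (adjusted p = 0.0404 and 0.0341), beside 2.65% of all its genes. Both were also called by edgeR on all genes with a count (adjusted p = 0.0114 and 0.0102), beside 3.2% of all genes. Tnfsf11, the RANKL gene, was at 3.25, 4.17 and 6.55 FPKM in knockouts A, B and C and 1.72, 1.28 and 3.46 FPKM in WT 1, 2 and 3 (log2 fold change 1.11 ± 0.38 SE, adjusted p = 0.223, edgeR). Tnfrsf11b, the gene of the decoy receptor osteoprotegerin, was at 30.2 ± 5.63 FPKM in knockouts against 41.5 ± 6.11 FPKM in wild types (log2 fold change -0.45, adjusted p = 0.205), and Csf1, the M-CSF gene, was at 173 ± 21.6 and 186 ± 18.67 FPKM.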

How the data were processed

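RNA labelled as bone marrow was sequenced from 3 P2rx7 knockout and 3 wild-type mice. The labels name no culture step. The authors deposited 1 table of 55291 genes with raw counts per gene and FPKM values. The FPKM values equal the deposited counts divided by exon length and by a scaled library size, with a relative error of at most 1e-06 for 100% of nonzero values. Per the submitters' processing notes the builds were GRCm38 and mm10. The sources used here do not name the aligner, the counter or the use of strand. The library totals and the counting floor of 3 counts set the precision, and intervals cover counting error alone.

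The members, lists and tests were chosen with earlier results of these data known. Counts were tested with edgeR 4.0.16 (filterByExpr, TMM, default quasi-likelihood fit, R 4.3.3), two-sided, with Benjamini-Hochberg adjustment over 15478 genes and a threshold of 0.05. The SE given with an edgeR log2 fold change is its absolute value divided by the square root of the F statistic. It is derived from the test and may be too small at few counts. Alternatives used limma 3.58.1 on log2(FPKM + 1), DESeq2 1.42.0, other scalings and filters, each library left out, and sets of libraries. P2rx7 and the isoform share had exact permutation tests. The fit was tested on simulated data. Named genes were P2rx7, all members, Atp6v0d1, the 5 genes most like Atp6v0d2, the 3 highest genes and the 2 of smallest p in each pathway list, any past the threshold, and the 2 highest in each marker list. Others were chosen after their values were seen. The value of 1 gene taken by this rule is not reported here.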

Additional observations from a re-analysis of the deposited data

How the results depend on the processing

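The count of changed genes was 16 in edgeR. It was 506 with DESeq2, 970 on all genes with a count, 6 with at least 10 counts in each library and 10 with limma. It was 0 in edgeR both when only the Gh libraries were used and when the set was fitted, where 668 and 894 genes had an unadjusted p below 0.05. Leaving out 1 library gave 0 to 172 changed genes: 8 without knockout A, 0 without knockout B or C (1468 and 1772 at an unadjusted p below 0.05), 5 without WT 1, 45 without WT 2 and 172 without WT 3. Of the 10 members 1 was called; this was 2 with DESeq2 and on all genes with a count (Atp6v0d2 and Acp5), and 0 with limma, on the Gh libraries and with the set fitted. With 1 library left out it was 0 to 1. Other pathway genes called were 5 with DESeq2 and 6 on all genes with a count, beside 2.65% and 3.2% of all genes in these fits. In the main fit 0 were called, beside 0.103%. P2rx7 lost its call on the Gh libraries (log2 fold change -0.64, adjusted p = 0.516, edgeR), with the set fitted (-0.64, adjusted p = 0.112), and without knockout B or C (adjusted p = 0.0763 and 0.0973). Leaving out 1 library gave -0.69 to -0.65 for P2rx7.

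Atp6v0d2 was 0.94 to 1.18 on the log2 scale over 19 alternatives and kept its side of the threshold in 12. Some of the 12 could not have differed: the earlier variance model is the main fit itself, and a larger pseudocount alters only the printed fold change. Besides the fits given with its result, it lost its call with limma on log2(FPKM + 1) (adjusted p = 0.0761) and on the Gh libraries (1.16, adjusted p = 0.516, edgeR). Its share in both forms was higher in knockouts by 5.24 to 7.99 percentage points over 7 alternatives. Nfatc1 turned to 0.041 on the Gh libraries and 0.044 with the set fitted, and ran from -0.050 to 0.021 with 1 library left out. Mmp9 turned to -0.025 on the Gh libraries and -0.022 with the set fitted, and ran from -0.017 to 0.39 with 1 library left out. Both turned without knockout C. Ctsk, Itgb3 and Oscar kept their sign and stayed short of the threshold in the alternatives run. Oscar has no value with at least 10 counts in each library. The cause of these changes was not tested. The Gh libraries and the fit of the sets rest on knockout A alone. The planned earlier variance model is this edgeR version's default, and the newer model, added after the data were seen, called 19 genes and Atp6v0d2. No paired analysis was possible because the labels give numbers to wild types and letters to knockouts.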

Other observations

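The 5 genes most like Itgb3, looked up after their values were seen, were Cbfa2t3, Vwf, Ripor3, Icam2 and P2ry1, nearest first. Vwf encodes von Willebrand factor of megakaryocytes and endothelium, and P2ry1 an ADP receptor of platelets. Predicted genes, unnamed clones, pseudogenes and antigen receptor segments were left out here too. By the same root mean square measure the 5 genes stood at 0.0556, 0.0602, 0.0836, 0.0941 and 0.112 in that order. Between Itgb3 and the members other than Ctsk it was 0.541 to 0.754, and 0.490 for Ctsk. Vwf had 0.484, 1.02 and 0.940 FPKM in knockouts A, B and C and 0.326, 0.377 and 0.762 FPKM in WT 1, 2 and 3. None of the 5 genes passed (adjusted p between 0.336 and 0.448, edgeR).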
